A study of Mus musculus with 8 samples.

Results

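Polycomb repressive complex 2 (PRC2) was followed through 9 of its subunit genes, chosen by name: the core subunits Ezh1, Ezh2, Eed and Suz12 and the accessory subunits Jarid2, Aebp2, Mtf2, Phf1 and Phf19. All 9 were found among the 20512 named genes with exon values and among the 18655 named genes with intron values. RNA came from neural progenitor cells (NPC) and from the mouse embryonic stem cells (ESC) they had been derived from, line F1-21.6, a hybrid of the 129Sv and Cast/EiJ backgrounds. Both groups carry that background. The NPC samples represent 1 clone, and the ESC were kept on a layer of inactivated embryonic fibroblasts with leukaemia inhibitory factor. Total RNA without ribosomal RNA was sequenced from 2 biological replicates per cell type, each with 2 technical libraries.

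PRC2 places methyl groups on lysine K27 of histone H3, a mark of genes held silent during development. Ezh2, or its paralog Ezh1, is the methyltransferase, Suz12 is the scaffold that holds the complex together, and Eed binds the finished mark and stimulates the enzyme. The core joins 1 of 2 accessory groups. The Polycomb-like proteins Mtf2, Phf1 and Phf19 help bring it to unmethylated CpG-rich DNA, and Jarid2 and Aebp2 form the alternative group. In mouse ESC the complex covers the promoters of developmental regulators, and ESC that lack it differentiate poorly.

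Transcripts of most, but not all, PRC2 subunits were lower in NPC. The core genes Eed and Suz12 and the accessory genes Mtf2, Jarid2 and Aebp2 fell in both exons and introns, while Ezh2, the main catalytic subunit, passed the test in neither. By the authors' deposited fold changes on exons, Mtf2 was 15.1-fold and Eed 10.3-fold higher in ESC, and the fold of ESC over NPC was 1.22 for Ezh2. By the authors' deposited table, 6 of the 9 genes passed an adjusted p of 0.05 and all 6 were lower in NPC. Of all 12509 genes tested there, 66.2% passed in either direction and 33.9% passed as lower in NPC. A further 32.3% passed as higher in NPC, a direction in which none of the 9 was called. The share of the 9 genes called was near that of all genes, and the 6 calls all went one way. A fall of at least 4-fold was called in 3 of the 9 (Mtf2, Eed and Jarid2), against 14.8% of all tested genes. In bulk RNA, fewer cells that express a gene and less of its RNA per cell cannot be told apart.

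Promoter windows of RefSeq (build GRCm38.p6) were available for all 9 genes, 13 windows in all, each running from 250 bases before to 50 bases after a transcript start. They are shown for the largest falls (Eed and Mtf2, for Mtf2 the more upstream of its windows) and for the 3 genes whose window holds a match to an E2F-type site, the class of site bound by the E2F factors of the cell cycle. The motifs searched on both strands were TTTCCCGC and TTTGGCGC, and the NRF1-type site GCGCATGC. Capitals mark a match, and each sequence runs 5′ to 3′ on the strand of the gene.
Eed (chr7:89980927-89981226, minus strand): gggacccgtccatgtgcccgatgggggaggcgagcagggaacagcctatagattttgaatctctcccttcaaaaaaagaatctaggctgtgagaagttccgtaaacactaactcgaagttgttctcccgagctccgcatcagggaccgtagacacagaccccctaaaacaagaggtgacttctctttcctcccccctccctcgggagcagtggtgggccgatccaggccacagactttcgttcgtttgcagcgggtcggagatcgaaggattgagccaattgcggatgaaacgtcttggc
Mtf2 (chr5:108065424-108065723, plus strand): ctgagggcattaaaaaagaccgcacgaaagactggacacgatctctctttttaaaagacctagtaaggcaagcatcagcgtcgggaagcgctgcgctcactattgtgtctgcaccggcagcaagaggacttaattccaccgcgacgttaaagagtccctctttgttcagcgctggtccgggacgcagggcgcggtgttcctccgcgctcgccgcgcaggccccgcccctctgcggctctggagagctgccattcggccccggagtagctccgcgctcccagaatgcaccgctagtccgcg
Suz12 (chr11:79992856-79993155, plus strand): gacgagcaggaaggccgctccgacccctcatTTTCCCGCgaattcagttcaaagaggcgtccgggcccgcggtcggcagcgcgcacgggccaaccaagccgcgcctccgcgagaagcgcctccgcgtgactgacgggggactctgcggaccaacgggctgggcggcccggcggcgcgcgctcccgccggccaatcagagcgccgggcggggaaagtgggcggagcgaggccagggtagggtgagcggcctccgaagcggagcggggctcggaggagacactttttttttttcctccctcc
Ezh2 (chr6:47594981-47595280, minus strand): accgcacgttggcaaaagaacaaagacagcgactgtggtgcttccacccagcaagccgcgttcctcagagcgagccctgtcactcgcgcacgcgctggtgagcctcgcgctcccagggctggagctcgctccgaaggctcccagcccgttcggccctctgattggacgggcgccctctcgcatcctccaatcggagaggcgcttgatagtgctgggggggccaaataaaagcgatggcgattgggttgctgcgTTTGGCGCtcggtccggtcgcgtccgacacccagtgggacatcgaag
Phf19 (chr2:34913927-34914226, minus strand): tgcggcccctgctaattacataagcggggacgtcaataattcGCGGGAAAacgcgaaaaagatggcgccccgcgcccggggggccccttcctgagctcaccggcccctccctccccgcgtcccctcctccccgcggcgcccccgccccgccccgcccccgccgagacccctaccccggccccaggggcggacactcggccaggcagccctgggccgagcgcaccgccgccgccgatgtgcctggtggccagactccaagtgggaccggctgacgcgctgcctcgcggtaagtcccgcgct

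The Suz12 and Phf19 windows hold TTTCCCGC, on the minus strand of the window for Phf19, where it reads GCGGGAAA. The matches begin 219 and 208 bases before the start. The Ezh2 window holds TTTGGCGC just after the start. No 2 matches share bases, since each window holds 1. Of all 32851 windows of this length, 1.07% hold TTTCCCGC, 0.514% hold TTTGGCGC and 1.56% hold either. The NRF1-type motif was in none of the 13 windows and in 2.71% of all windows. Among the genes with a match, Suz12 was called lower in NPC, and Ezh2 and Phf19 did not pass the test. A link between a match and the change was not tested. The windows of Suz12 and Phf19 were rich in G and C (71.0% and 74.3%, with 41 and 38 CpG), that of Eed less so (54.7%, 17 CpG), against a median of 52.7% and 7 CpG over all windows. A match is only a run of letters, and binding was not measured here.

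In mm9, the build of the files, the transcript starts lie on chromosome 11 at 101087764 (Ezh1, minus strand) and 79806608 (Suz12, plus strand), on chromosome 6 at 47545029 (Ezh2, minus strand) and 140571184 (Aebp2, plus strand), and on chromosome 7 at 97129486 (Eed, minus strand). Jarid2 starts on chromosome 13 at 44826207 and Mtf2 on chromosome 5 at 108494761, both on the plus strand. Phf1 starts on chromosome 17 at 27070072 (plus strand) and Phf19 on chromosome 2 at 34769496 (minus strand). The counted introns of Jarid2 add up to 155638 bases and those of Phf1 to 1471 bases, the longest and the shortest of the 9. In the RefSeq annotation the noncoding RNA F830010H11Rik overlaps Ezh2 and the microRNA Mir6968 overlaps Phf1, and whether the authors' counting used strand is not stated.

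Exon levels are given as RPKM, a read density scaled to exon length and library depth. The authors give 1 pooled value per cell type, so they carry no replicate spread and their tests are the authors' own. Ezh2 was at 71.4 RPKM in NPC and 78.5 in ESC, with a log2 fold change of -0.29 and an adjusted p of 0.293 in the authors' deposited table. Ezh1, whose enzyme is less active than that of Ezh2, was much lower, at 6.47 RPKM in NPC and 10.8 in ESC. It fell, with a log2 fold change of -0.87 (adjusted p = 0.00711, authors' deposited table). Per length, Ezh2 exons thus exceeded Ezh1 exons 11.0-fold in NPC and 7.29-fold in ESC. Their summed level was 77.9 RPKM in NPC and 89.3 in ESC.

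The 2 other core subunits fell further than the methyltransferase genes. Eed was at 51.9 RPKM in NPC, against 486 in ESC, a log2 fold change of -3.37 (adjusted p = 3.83e-49, authors' deposited table). The exon level of Eed exceeded that of 79.6% of tested genes in NPC and 98.9% in ESC. Suz12 was at 40.6 RPKM in NPC, against 126 in ESC, a log2 fold change of -1.80 (adjusted p = 1.06e-15, authors' deposited table). The order of the core genes by exon level was therefore Ezh2, Eed, Suz12, Ezh1 in NPC and Eed, Suz12, Ezh2, Ezh1 in ESC. Eed exons stood at 0.726 times the level of Ezh2 exons in NPC and at 6.18 times in ESC, and Suz12 exons at 0.569 times in NPC and 1.60 times in ESC.

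**Figure D1:**
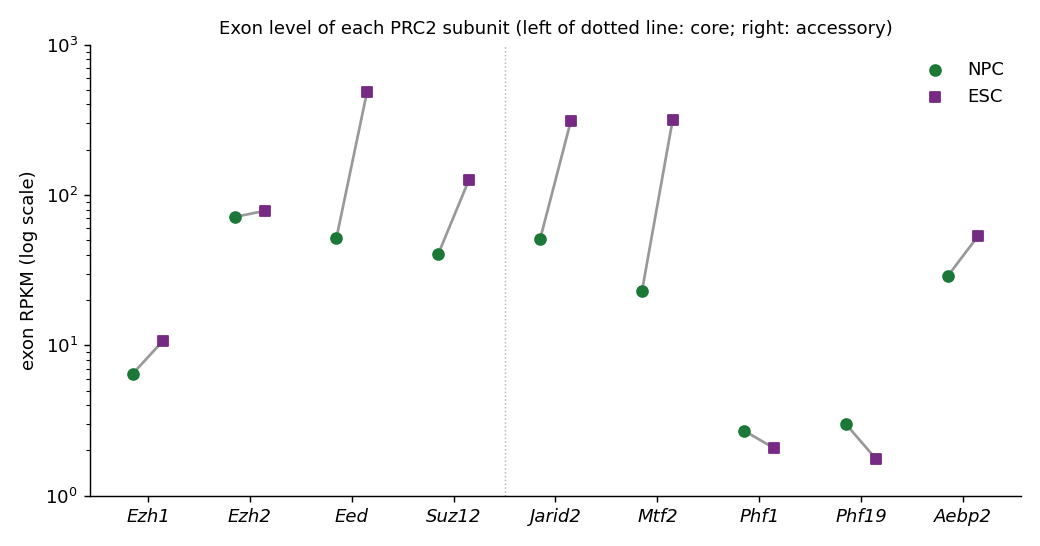
Exon level in RPKM (log axis) of the 4 core and 5 accessory subunit genes, as pooled by the authors; a green circle is NPC and a purple square is ESC, joined per gene. Eed, Mtf2 and Jarid2 span the widest gap, Ezh2 is almost level (71.4 in NPC and 78.5 in ESC), and Phf1 and Phf19 are the lowest in both.

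Among the Polycomb-like genes, Mtf2 made up nearly all of the ESC level. It was at 23.1 RPKM in NPC, against 315 in ESC, a log2 fold change of -3.92 (adjusted p = 4.07e-69, authors' deposited table). Of the 12509 tested genes, 5.64% had a lower log2 fold change than Mtf2. Its paralogs were scarce in both cell types. Phf1 was at 2.71 RPKM in NPC and 2.06 in ESC (log2 fold change 0.29, adjusted p = 0.673, authors' deposited table). Phf19 was at 2.997 RPKM in NPC and 1.74 in ESC (log2 fold change 0.59, adjusted p = 0.287, authors' deposited table). Mtf2 exons were 4.06 times the sum of Phf1 and Phf19 exons in NPC and 82.7 times in ESC.

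The Jarid2 and Aebp2 group fell less than Mtf2. Jarid2, a DNA-binding member of the Jumonji family without demethylase activity, was at 51.1 RPKM in NPC, against 309 in ESC, a log2 fold change of -2.72 (adjusted p = 7.64e-35, authors' deposited table). Aebp2, a zinc finger protein, was at 28.9 RPKM in NPC, against 53.5 in ESC, a log2 fold change of -1.05 (adjusted p = 2.48e-05, authors' deposited table). Summed exon levels were 79.9 RPKM in NPC and 363 in ESC for Jarid2 and Aebp2, and 28.8 RPKM in NPC and 319 in ESC for the 3 Polycomb-like genes. The first sum over the second was 2.77 in NPC and 1.14 in ESC. Over all 9 genes the exon sum was 279 RPKM in NPC and 1382 in ESC. Ezh2 contributed 25.6% of that sum in NPC and 5.68% in ESC, and Eed 18.6% in NPC and 35.1% in ESC.

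Introns, which mostly report unspliced RNA, gave a value for each biological replicate. Their unit is not named in the file and was read from the values as RPKM over introns. The columns rest on 6130157 and 5536926 recovered intron reads in NPC replicates 1 and 2 and on 6215907 and 7002635 in ESC replicates 1 and 2. NPC replicate 1 stood apart by a high floor: the 237 olfactory, vomeronasal and taste receptor genes, which neither cell type is known to use, had a median intron level of 0.747 RPKM there and 0.0822 in NPC replicate 2, against 0.0283 and 0 in ESC replicates 1 and 2. Pooled as reads over summed intron length, the receptor level was 0.377 and 0.104 RPKM in NPC replicates 1 and 2. It was 0.0488 and 0.0285 RPKM in ESC replicates 1 and 2. The members' values with the receptor median subtracted from each column follow those as deposited. The pooled level was not subtracted, so what the subtraction changes holds for the median only.

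Eed introns were at 2.44 and 4.13 RPKM in NPC replicates 1 and 2, against 33.5 and 39.6 RPKM in ESC replicates 1 and 2 (343 and 520 reads in NPC, 4690 and 6244 in ESC). Mtf2 introns were at 2.28 and 3.75 RPKM in NPC, against 29.5 and 31.4 RPKM in ESC. Suz12 introns were at 1.89 and 3.15 RPKM in NPC, against 10.0 and 10.8 RPKM in ESC. For these 3 genes both NPC replicates lay far below both ESC replicates. Jarid2 introns were at 1.70 and 2.25 RPKM in NPC, against 7.16 and 7.36 RPKM in ESC. Aebp2 introns were at 2.13 and 3.27 RPKM in NPC, against 8.32 and 8.23 RPKM in ESC. These groups did not overlap either, and within NPC replicate 1 was the lower in each of the 5 genes. Subtracting the receptor median left NPC replicates 1 and 2 at 1.69 and 4.05 RPKM for Eed, 1.53 and 3.67 for Mtf2 and 1.14 and 3.07 for Suz12. It left them at 0.956 and 2.17 RPKM for Jarid2 and at 1.39 and 3.18 for Aebp2, with the ESC values lower by 0.0283 RPKM in replicate 1 and unaltered in replicate 2. The subtraction thus widened the gap between the NPC replicates, and the groups still did not overlap in these 5 genes.

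Ezh2 introns were at 2.33 and 3.34 RPKM in NPC, against 3.64 and 3.43 RPKM in ESC (839 and 1077 reads in NPC, 1303 and 1383 in ESC). The groups did not overlap, but NPC replicate 2 came close to the ESC values. Ezh1 introns were at 1.13 and 1.23 RPKM in NPC, against 1.22 and 1.02 RPKM in ESC, and the groups overlapped. Phf1 introns, with only 13 to 22 reads per sample, were at 1.53 and 2.23 RPKM in NPC, against 1.77 and 2.30 RPKM in ESC, and overlapped too. Phf19 introns were at 0.978 and 0.6701 RPKM in NPC, against 0.357 and 0.248 RPKM in ESC. Phf19 was the only one of the 9 whose NPC replicates both lay above both ESC replicates. After the receptor median of each column was subtracted, Phf19 stood at 0.231 and 0.588 RPKM in NPC, against 0.329 and 0.248 in ESC, and the groups overlapped. Whether they overlap with the pooled receptor level subtracted was not tested. Subtraction of the median left Ezh2 at 1.59 and 3.26 RPKM in NPC, against 3.61 and 3.43 in ESC, still without overlap. It left Ezh1 at 0.386 and 1.15 RPKM in NPC, against 1.19 and 1.02 in ESC, and Phf1 at 0.779 and 2.15 RPKM in NPC, against 1.74 and 2.30 in ESC, both with overlap.

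**Figure D2:**
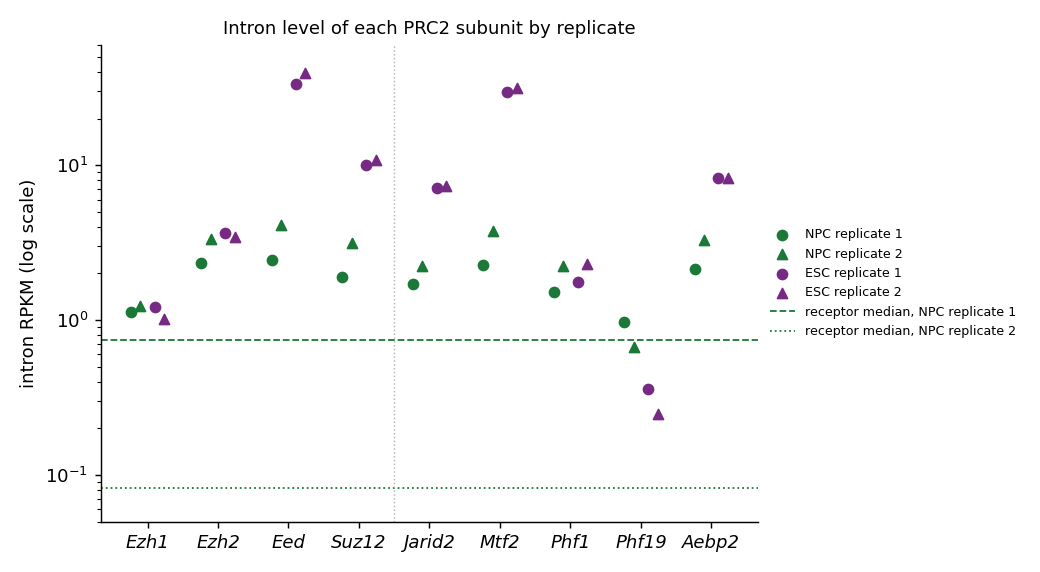
Intron level in RPKM (log axis) of each subunit gene in NPC replicates 1 and 2 (green) and ESC replicates 1 and 2 (purple); lines mark the median of 237 receptor genes in the NPC replicates. Eed and Mtf2 are highest in ESC and sit between 2.28 and 4.13 RPKM in NPC, and Phf19 in NPC lies near the line of NPC replicate 1 at 0.747 RPKM.

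Introns of 8 members passed the level filter (a mean of at least 1 RPKM over the 4 samples), and Phf19 did not. In limma on log2(RPKM + 1) with Benjamini-Hochberg adjustment over 8811 genes, 5 of the 8 were called and all 5 were lower in NPC. Of all genes tested, 47.3% were called in either direction, 34% as lower and 13.2% as higher, with 1167 higher and 2998 lower. With columns scaled by size factors 5 members were again called lower, beside 2311 genes higher (26.2%) and 2228 lower (25.3%) over all, 51.5% in either direction. The log2 fold changes in limma were -3.15 for Eed (SE 0.624, adjusted p = 0.00177), -2.99 for Mtf2 (SE 0.585, adjusted p = 0.00166) and -1.72 for Suz12 (SE 0.403, adjusted p = 0.00477). For Jarid2 limma gave -1.48 (SE 0.318, adjusted p = 0.00291) and for Aebp2 -1.34 (SE 0.375, adjusted p = 0.0123). Ezh2 (-0.25, limma adjusted p = 0.467), Ezh1 (0.04, adjusted p = 0.847) and Phf1 (-0.08, adjusted p = 0.768) did not pass, and their signs turned under some of the alternatives.

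The median over all genes tested on introns was -0.43, and scaling the columns brought it to -0.02. Relative to the median, Eed was at -2.72, Mtf2 at -2.56, Suz12 at -1.29, Jarid2 at -1.04 and Aebp2 at -0.91, all still lower in NPC. Ezh2 was at 0.18, Ezh1 at 0.48 and Phf1 at 0.35 relative to it. Both NPC replicates lay below both ESC replicates in 6 of the 8 tested members, and in 55.5% of all genes tested. The opposite order was seen in 0 of the 8 and in 21.9% of all genes, so the replicates of 77.4% of genes did not overlap. Without NPC replicate 1, 5 members were called lower, at -2.87 for Eed, -2.73 for Mtf2, -1.46 for Suz12, -1.35 for Jarid2 and -1.12 for Aebp2, beside 43.7% of all genes called lower, 26.6% called higher and 70.3% called in either direction. Without NPC replicate 2, 6 members were called lower, Ezh2 among them (-0.44, limma adjusted p = 0.0228), beside 60.1% of all genes lower, 14.5% higher and 74.6% in either direction. Without either ESC replicate no member was called in limma, with 3 at an unadjusted p under 0.05 without ESC replicate 1 and 2 without ESC replicate 2. The spread in those fits rests on the NPC replicates alone. In the fits without an NPC replicate it rests on the ESC replicates alone, so their counts and p-values do not carry the spread between NPC replicates. Of all genes, 12.9% were still called lower, 6.2% higher and 19.1% in either direction without ESC replicate 1, and 12.6% lower, 5.54% higher and 18.1% in either direction without ESC replicate 2. Eed was at -3.27 and -3.04 in those fits. With the receptor median subtracted 4 members were called lower, beside 25.2% of all genes lower, 5.75% higher and 31% in either direction, and Aebp2 was not called (-1.55, limma adjusted p = 0.0513). With columns scaled after that subtraction 5 were called lower, beside 31.6% of all genes lower, 30.9% higher and 62.6% in either direction. At a mean of at least 0.1 RPKM Phf19 could be tested and was at 0.48 (SE 0.234, limma adjusted p = 0.131). The median over all 18070 genes of that setting was itself above 0, at 0.23. Of these genes 16.5% were called lower, 11.5% higher and 28% in either direction.

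**Figure D3:**
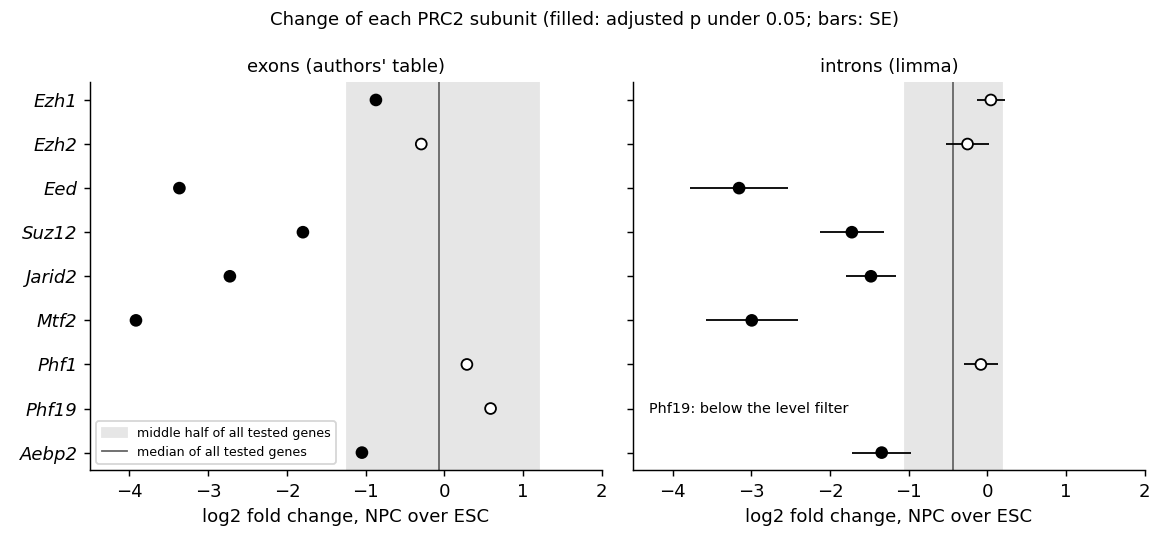
Log2 fold change of NPC over ESC for each subunit gene on exons (left, authors' deposited table) and on introns (right, limma, bars are SE); filled points have an adjusted p under 0.05, the line is the median of all tested genes and the grey band spans their quartiles. Eed and Mtf2 lie farthest to the left in both panels, and Ezh2 lies inside the grey band in both.

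Ratios between subunits within a sample do not depend on how the columns were scaled. Introns of Eed stood at 1.05 and 1.24 times those of Ezh2 in NPC replicates 1 and 2, against 9.21 and 11.6 times in ESC replicates 1 and 2. Introns of Suz12 stood at 0.8098 and 0.942 times those of Ezh2 in NPC, against 2.76 and 3.16 times in ESC. Eed over Suz12 was 1.29 and 1.31 in NPC, against 3.34 and 3.66 in ESC. The NPC replicates were close to each other in these 3 ratios and lay well below the ESC replicates. Mtf2 over the sum of Phf1 and Phf19 was 0.909 and 1.29 in NPC, against 13.9 and 12.3 in ESC. Jarid2 and Aebp2 over the 3 Polycomb-like genes was 0.803 and 0.8295 in NPC, against 0.490 and 0.4596 in ESC, higher in NPC as on exons. Ezh2 over Ezh1 was 2.06 and 2.72 in NPC, against 2.98 and 3.38 in ESC, which is lower in NPC, whereas on exons it was higher (11.0 and 7.29). After subtraction of the receptor median it was 4.11 and 2.84 in NPC, against 3.03 and 3.38 in ESC, and the groups overlapped. Subtraction of the lower pooled receptor level was not tested. With the median subtracted, Mtf2 over the sum of Phf1 and Phf19 was 1.51 and 1.34 in NPC, against 14.2 and 12.3 in ESC. In the other 4 ratios too the groups stayed apart. The groups did not overlap in any of the 6 ratios as deposited, but the ratios share genes and are not independent. How often ratios between other genes do not overlap was not worked out, and 77.4% of single genes tested on introns did not overlap. An exact 2-sided permutation test of 2 against 2 samples cannot give a p below 0.333, which each ratio had.

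**Figure D4:**
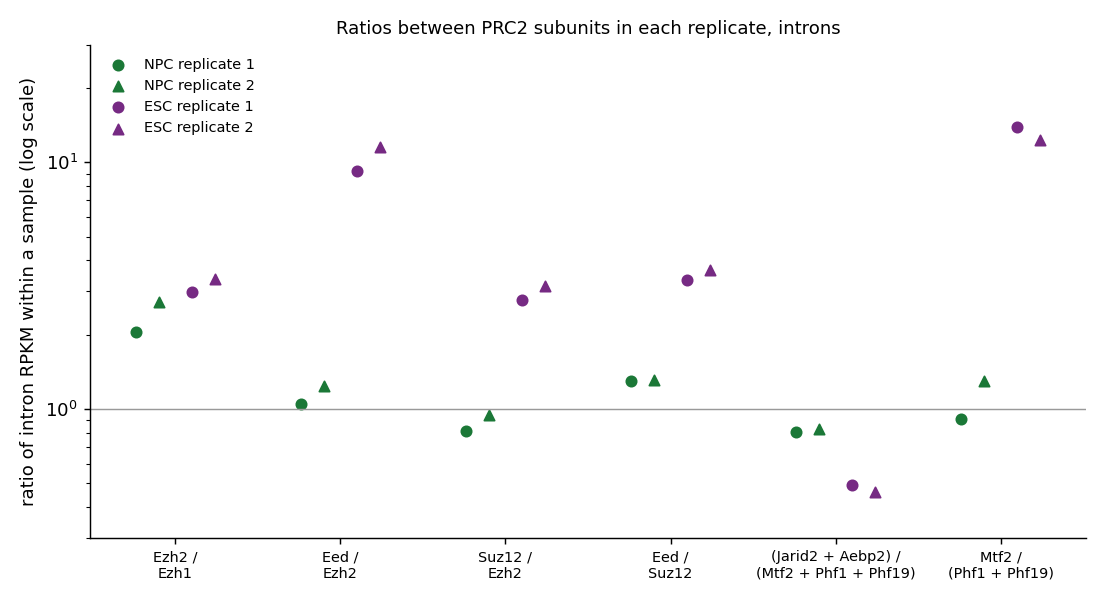
Ratio of intron RPKM between subunit genes within each sample (log axis) for NPC replicates (green) and ESC replicates (purple); the line marks equal levels. Eed over Ezh2 falls to 1.05 and 1.24 in NPC, against 9.21 and 11.6 in ESC, and Jarid2 and Aebp2 over the 3 Polycomb-like genes is higher in NPC.

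Of 7 further PRC2 partners, 5 were matched in the exon table, and 3 of these were called lower in NPC and none higher, beside 66.2% of all tested genes called and 33.9% called lower (median log2 fold change -0.89, against -0.07 over all tested genes). E130012A19Rik, the older symbol of Epop, which joins the Polycomb-like form of PRC2, was at 7.02 RPKM in NPC, against 183 in ESC (log2 fold change -4.80, adjusted p = 1.34e-83, authors' deposited table). AU022751, the older symbol of Ezhip, an inhibitor of PRC2 in germ cells, was at 0.274 RPKM in NPC, against 2.54 in ESC (log2 fold change -3.33, adjusted p = 0.000159, authors' deposited table). The histone-binding subunit genes were abundant in both cell types. Rbbp7 was at 249 RPKM in NPC, against 421 in ESC (log2 fold change -0.89, adjusted p = 0.000335), and Rbbp4 was at 82.4 RPKM in NPC and 74.1 in ESC (-0.02, adjusted p = 0.949), both from the authors' deposited table. For Rbbp4 the RPKM values and the fold change point in opposite directions, and it did not pass. Rbbp4 and Rbbp7 also serve in other chromatin complexes. Of the partners called lower, AU022751 and Rbbp7 lie on chromosome X and E130012A19Rik on chromosome 11. The sex chromosomes of NPC and ESC were not compared. Lcor, a further PRC2 partner, was at 5.94 RPKM in NPC and 6.46 in ESC and did not pass.

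Of the 3 genes of the demethylase family that removes the mark, Kdm6a fell and Kdm6b rose. The third, Uty, was under the level filter, at 0.00289 RPKM in NPC and 0.4001 in ESC, and without that filter it was called lower (log2 fold change -5.55, adjusted p = 0.000211, authors' deposited table). Uty lies on chromosome Y and Kdm6a on chromosome X, and the sex chromosomes of NPC and ESC were not compared. Kdm6a was at 41.4 RPKM in NPC, against 72.7 in ESC (log2 fold change -0.94, adjusted p = 0.00067), and Kdm6b was at 7.80 RPKM in NPC, against 3.56 in ESC (1.04, adjusted p = 0.00312), both from the authors' deposited table. Of 3 tested genes of the complex that removes ubiquitin from histone H2A, Asxl1 and Asxl2 fell and the enzyme gene Bap1 did not pass. Over all tested genes 66.2% were called, 33.9% as lower and 32.3% as higher, so calls in these short lists are common. The same shares stand beside the tested demethylase genes. Asxl1 was at 22.2 RPKM in NPC, against 75.5 in ESC (log2 fold change -1.89, adjusted p = 2.03e-14, authors' deposited table).

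PRC1, the Polycomb complex that adds that ubiquitin, had calls in both directions. Of 23 tested subunit genes, 7 were called higher and 10 lower in NPC, beside 32.3% higher and 33.9% lower over all tested genes, with a median log2 fold change of -0.10, against -1.33 for the 4 core and -1.05 for the 5 accessory PRC2 genes. Within the paralogs of Cbx, which read the PRC2 mark, Cbx7 was at 2.68 RPKM in NPC, against 39.5 in ESC, while Cbx8 was at 13.7 RPKM in NPC, against 1.60 in ESC. Phc1, a polyhomeotic subunit, was at 15.4 RPKM in NPC, against 118 in ESC. All 3 were called in the authors' deposited table. The difference between the PRC1 and PRC2 lists was not tested.

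Of 31 developmental regulators known from ESC as PRC2 targets, 14 stayed below 1 RPKM in both NPC and ESC and 13 were tested. Of the 13, 10 were called higher and 1 lower in NPC, beside 32.3% higher and 33.9% lower over all tested genes. Their median log2 fold change was 4.92, against -0.07 over all tested genes. Such genes are low in ESC, so a level filter admits mainly those that are high in NPC. Neither the count nor the median can therefore stand for all 31. Olig2, a factor of ventral neural progenitors that is also among the NPC markers, was at 448 RPKM in NPC, against 0.686 in ESC, and Hoxa2, a hindbrain position gene, at 43.4 RPKM in NPC, against 0.155 in ESC. Wt1 was at 0.499 RPKM in NPC, against 1.78 in ESC. Eomes, at 0.313 RPKM in NPC and 2.36 in ESC, did not pass (adjusted p = 0.311, authors' deposited table).

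**Figure D5:**
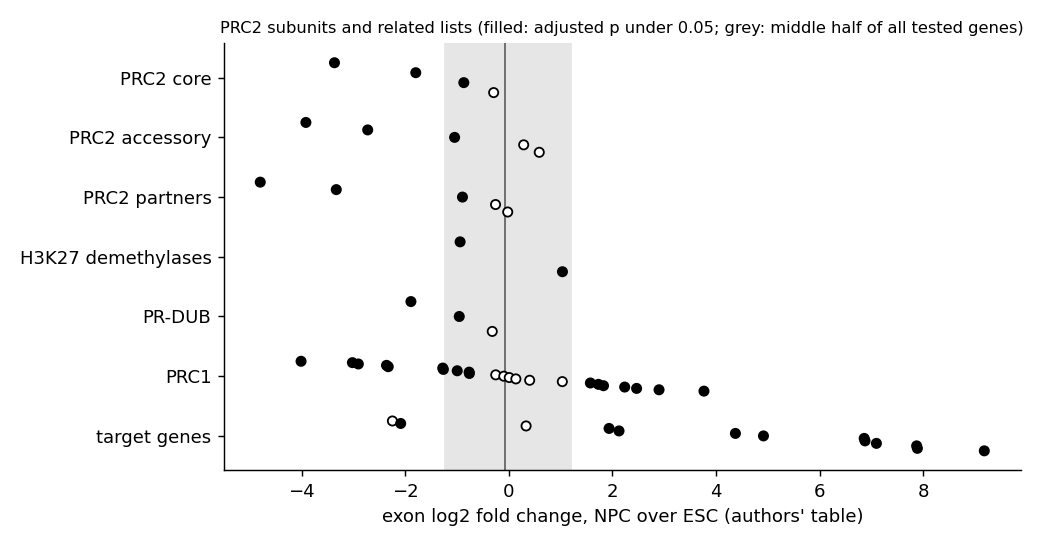
Exon log2 fold change of NPC over ESC (authors' deposited table) for tested genes of the PRC2 subunit groups and of related lists; filled points have an adjusted p under 0.05, the line is the median of all tested genes and the grey band spans their quartiles. No filled point of PRC2 core, accessory or partner genes lies to the right, PRC1 has 7 filled points to the right and 10 to the left, and the tested target genes reach a log2 fold change of 9.18.

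The genes nearest to Ezh2 in the plane of exon log2(RPKM + 1) in NPC and ESC, over 2 pooled levels and 12509 genes, were Hist1h3c (70.5 RPKM in NPC and 80.7 in ESC, distance 0.0432), Ckap4 (71.2 and 75.5, distance 0.0556) and Rbm7 (71.3 and 75.2, distance 0.0619). Nearest to Ezh1 were Zfp182 (6.65 RPKM in NPC and 10.9 in ESC, distance 0.035), Zfp595 (6.66 and 11.0, distance 0.0426) and Napepld (6.67 and 11.0, distance 0.0459). With 2 levels per gene such likeness is common and carries no more than the level itself.

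The cell types matched their labels. The 6 ESC marker genes lay between 1.26 and 2.94 RPKM in NPC and between 347 and 1606 in ESC, and the 6 NPC marker genes between 42.6 and 10684 RPKM in NPC and between 0.686 and 39.7 in ESC. Of 7 fibroblast markers fixed for the feeder layer, 6 were called lower in NPC, none was at 0, and their sum was 8.70 RPKM in NPC and 74.5 in ESC. The part of feeder RNA in the ESC levels of PRC2 subunits was not tested. Of 4 tested neuron markers, 2 were higher and 2 lower in NPC.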

How the data were processed

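The authors deposited 2 tables for mouse NPC and ESC. The exon table holds 1 RPKM value per gene and cell type, and the authors' log2 fold change of NPC over ESC with an adjusted p-value, per the file headers. The direction was read from the RPKM ratio. Of 20596 exon genes 84 had no name. The submitters' processing notes name DESeq2 1.10.0 and mm9. Aligner, counter, annotation and use of strand: not given in the sources used here. Introns have 1 deposited value per biological replicate, with technical libraries combined by the authors per the file headers. Their unit, RPKM, was inferred: values were whole multiples of 1 read, within 0.001 reads, for all 18447 genes above 0, which also gave the reads per gene.

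Tests kept genes whose mean reached 1 RPKM, at a threshold of 0.05. Introns were tested with limma 3.58.1 in R 4.3.3 (trend on, NPC replicates against ESC replicates) on log2(RPKM + 1), which understates changes of low genes. The limma p-values rest on the spread of 2 and 2 biological replicates, moderated by a trend over all genes tested. How the authors' exon test treated the technical libraries is not stated. For 10 kb of introns, 3 reads, the limit that a count of 0 allows, equal 0.0518 and 0.0578 RPKM in NPC and 0.052 and 0.0461 in ESC (counting error only). The fit was tested on simulated data. Alternatives changed the pseudocount, filter, trend, scaling, background, count model, replicates and block. Subtracting background together with scaling, and the alternatives of the ratios, were chosen after seeing the data. From each related list the tested genes with the 2 largest increases and the 2 largest decreases could be named; Rbbp7, Rbbp4, Lcor and Bap1 fall outside this rule and were chosen after their values were seen. For Ezh1 and Ezh2 the 3 nearest genes were named. The members and lists were chosen with earlier results of these data known. GRCm38.p6 promoter sequences were not tied to mm9 coordinates.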

Additional observations from a re-analysis of the deposited data

How the results depend on the processing

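The exon alternatives of filter and threshold reuse the authors' fold changes, so they could not turn a direction. Centring on the median of all tested genes could, as could the log2 ratio of the pooled RPKM with a pseudocount of 1. These kept the direction of every member. All exon alternatives use the authors' adjusted p, with 5 members called at a mean of at least 10 RPKM, where 6 were tested, and 6 called otherwise. On introns 5 members were called lower in the replicate block, with other pseudocounts, filters and scaling, without trend and by voom. Of all 8811 genes, 1145 were called higher and 2632 lower in the replicate block, 753 and 2549 without trend, and 949 and 2760 by voom. A pseudocount of 0.1 gave 1122 higher and 2821 lower, and 0.5 gave 1170 and 2956. Without a filter 1419 were called higher and 2344 lower of 18393 genes. With the receptor background subtracted 4 members were called, without Aebp2 (-1.55, limma adjusted p = 0.0513). Leaving out a replicate gave 0 to 6, while 18.1% to 74.6% of all genes were called. The replicate numbers share only a number (r = 0.019 over 8811 genes). Over 14 alternatives Eed ranged between -3.52 and -2.48, Mtf2 between -3.38 and -2.34, Suz12 between -2.09 and -1.17, Jarid2 between -1.89 and -0.99 and Aebp2 between -1.65 and -0.76.

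Values that turned sign were Ezh2 at 0.19 with columns scaled and 0.30 with background subtracted and columns scaled, Phf1 at 0.30 and 0.24 in the same fits, and above 0 without ESC replicate 2 (0.04) and without NPC replicate 1, and Ezh1 at -0.28 with background subtracted. Leaving out a replicate gave -0.025 to 0.11 for Ezh1 and -0.26 to 0.095 for Phf1, with Ezh1 below 0 without ESC replicate 2. The log2 difference of Ezh2 over Ezh1 was -0.42 as deposited and 0.095 with background subtracted as the receptor median. The pooled receptor level was not tried as background. The cause was not tested. With a mean of at least 10 RPKM fewer genes of the lists were tested. There 1 of 1 demethylase and 6 of 7 target genes were called, against 2 of 2 and 11 of 13 in the main setting. The share of all genes called at that filter was not worked out. Leaving out a replicate kept the sign of all 6 ratios, with log2 differences of NPC minus ESC of -0.62 to -0.22 for Ezh2 over Ezh1, -3.35 to -3.02 for Eed over Ezh2, -1.87 to -1.65 for Suz12 over Ezh2, -1.49 to -1.36 for Eed over Suz12, 0.74 to 0.83 for Jarid2 and Aebp2 over Mtf2, Phf1 and Phf19, -3.85 to -3.34 for Mtf2 over Phf1 and Phf19. Phf19 introns, tested with a mean of at least 0.1 RPKM, were at 0.48 (limma adjusted p = 0.131, unadjusted p = 0.0479). The median over all genes was 0.23 in that setting.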

Other observations

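Exons were set against introns of the same gene as the authors' pooled exon RPKM over the mean intron RPKM, with no test. The ratio was 25.9 in NPC and 42.6 in ESC for Jarid2, 7.68 in NPC and 10.4 in ESC for Mtf2, and 5.48 in NPC and 9.63 in ESC for Ezh1. It was 15.8 in NPC and 13.3 in ESC for Eed, 16.1 in NPC and 12.1 in ESC for Suz12, 25.2 in NPC and 22.2 in ESC for Ezh2, and 10.7 in NPC and 6.47 in ESC for Aebp2. The intron floor of NPC replicate 1 and the scale of the intron columns (size factors of 0.673 and 0.988 in NPC, 1.21 and 1.24 in ESC) enter these ratios, and their part was not tested. A change of scale moves the ratios of all genes alike, so no order between NPC and ESC is read from them.

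The members lie on chromosomes whose genes had an exon median log2 fold change near 0, between -0.16 (chromosome 17, Phf1) and 0.26 (chromosome 6, Ezh2 and Aebp2) in the authors' deposited table. The median of chromosome 6 rests on 591 tested genes, and both members on it lay below that median.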
